A study of Mus musculus with 28 samples.

Results

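The 10 genes described here let heart muscle burn ketone bodies and move high-energy phosphate from mitochondria to the contractile fibers, and they were followed through hearts that lost plakophilin 2 (PKP2) and hearts treated with TN-401, an adeno-associated virus of serotype 9 (AAV9) that carries human PKP2. They were given as a list of names: Bdh1, Oxct1, Acat1, Slc16a1, Ckm, Ckmt2, Ckb, Slc6a8, Gatm and Ak1, which are 10 of the 39152 gene symbols in the count table. All 10 passed the filter on low counts in both ventricles. RNA sequencing covered the left ventricle (LV) of 16 C57BL6 mice and the right ventricle (RV) of 12 of the same mice, 28 libraries in all. All animals carried floxed Pkp2 alleles (Pkp2 fl/fl). In the Pkp2-cKO animals (cKO), the αMyHC-Cre-ER(T2) transgene deletes Pkp2 in cardiomyocytes after tamoxifen, so other cells of the heart keep the gene. The wild-type controls (WT) were Cre-negative littermates. WT and cKO mice received HBSS, the injection buffer, and the treated cKO mice received TN-401 behind the eye (retro-orbitally) 1 week before tamoxifen, with doses of 3E13 and 6E13 vector genomes (vg) per kg. The title of the series places the study at about 10 weeks, and the methods of the study give the ages of its animals as a range. Ages per group were not used here, and the part of age in the results was not tested. The collection time of the HBSS-treated cKO mice is not stated apart from that of the treated mice. The study reports early deaths of HBSS-treated cKO mice in its other experiments, so time since deletion may differ between groups. The part of that time in the results was not tested. The WT group had 5 LV and 3 RV libraries, the cKO group 4 and 4, the 3E13 group 4 and 2, and the 6E13 group 3 and 3.

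Ketone bodies are made by the liver from fatty acids and are taken up by the heart, where they serve as fuel beside fatty acids, glucose and lactate. SLC16A1 (monocarboxylate transporter MCT1) carries them across the cell membrane, BDH1 oxidizes β-hydroxybutyrate to acetoacetate in the mitochondrion, OXCT1 (SCOT) couples acetoacetate to coenzyme A and is the committed step of ketone use, and ACAT1 cleaves the product to acetyl-CoA for the citric acid cycle. Creatine kinases work at both ends of a shuttle. The mitochondrial enzyme CKMT2 charges creatine with phosphate from new ATP, and the cytosolic enzymes CKM (muscle form) and CKB (brain form) turn phosphocreatine back into ATP where it is spent. Heart muscle makes little creatine and imports it through SLC6A8, while GATM catalyzes the first step of creatine synthesis, mainly in kidney and pancreas. AK1, the cytosolic adenylate kinase, makes ATP and AMP from ADP and forms a parallel relay. Failing hearts are known for less phosphocreatine and less creatine kinase activity, and for a greater reliance on ketones.

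Libraries held 19364764 to 39381176 estimated reads. Levels below are CPM, the count of a gene relative to the size of its library after scaling by TMM, which sets the bulk of genes equal between libraries of a ventricle. Mouse Pkp2 stood at 103 to 121 CPM in WT LV and 29.2 to 55.2 CPM in cKO LV, and at 110.3 to 122 and 30.2 to 38.9 CPM in RV, with no overlap (log2 fold change -1.39 ± 0.15 and -1.75 ± 0.125). The human transgene had 0 counts in every WT and cKO library and stood at 167 to 364 CPM in 3E13 LV, 333 to 535 in 6E13 LV, 242 to 277 in 3E13 RV and 295 to 466 in 6E13 RV. Mitochondrially encoded transcripts took 33.48 to 39.63% of the counts in WT libraries and 15.0 to 26.75% in cKO libraries. A cKO animal, replicate 177, stood apart. It was the lowest of the 4 cKO animals for 8 of the 10 genes in LV and for 8 in RV. It also had the smallest mitochondrial share in each ventricle (18.17% and 15.0%), so several results are also given without it. All 10 markers of ventricular cardiomyocytes were detected in every group of both ventricles. Their summed level in CPM was 103344 to 113480.1 for WT and 34885 to 84435 for cKO in LV, and 98939 to 114129 for WT and 34864 to 69871 for cKO in RV. In pieces of whole ventricle, fewer cells of a type and less RNA per cell cannot be told apart.

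By the test on counts, in cKO hearts the genes for the last steps of ketone use, the muscle and mitochondrial creatine kinases and adenylate kinase were lower than in WT, and Gatm was higher. In LV, 6 of the 10 genes passed the test (edgeR's quasi-likelihood F test, adjusted p below 0.05), 1 higher and 5 lower, and their share stood beside 35.8% of all genes tested in that comparison. In RV, 8 of the 10 passed, 2 higher and 6 lower, beside 37.4% of all genes. The median log2 fold change of the 10 genes was -0.47 in LV and -0.87 in RV, and that of all genes tested was 0.05 and 0.06. Oxct1, Acat1, Ckm, Ckmt2, Ak1 and Gatm passed in both ventricles. Slc16a1 and Ckb passed in RV and not in LV, which does not show that the ventricles differ, since the test of that difference itself passed for no gene. Bdh1 and Slc6a8 passed in neither. Without cKO replicate 177 the same genes passed in RV, and in LV Gatm no longer did (0.72, adjusted p = 0.0502). The fold changes of Acat1, Ckmt2, Ak1 and Slc16a1 became smaller without it, at -0.60, -0.57, -0.67 and -0.16 in LV. In RV they were -1.05, -1.29, -0.87 and -0.57. Leaving out other animals moved single genes. Gatm was lost in RV without WT replicate 637 (1.12, adjusted p = 0.0507) and Slc16a1 without WT replicate 647 (-0.60, adjusted p = 0.0586), while in LV Slc16a1 passed without cKO replicate 180 (-0.45, adjusted p = 0.0379) and Ckb without cKO replicate 264 (0.37, adjusted p = 0.0471). On log2(TPM + 1), where TPM is a level relative to transcript length and to all transcripts of the library and the median of all genes was 0.38 higher in cKO LV and 0.56 higher in cKO RV, limma called 4 genes in LV, 3 higher and 1 lower, and 6 in RV, 3 higher and 3 lower. The genes that passed on counts and lost their call there were Oxct1, Acat1, Ckmt2 and Ak1 in LV and Oxct1, Slc16a1 and Ak1 in RV. On log2(TPM + 1) without mitochondrial genes, Acat1 and Ak1 passed in LV and Oxct1 and Ak1 in RV (limma). Oxct1 and Ckmt2 in LV and Slc16a1 in RV did not pass on that scale either.

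**Figure D1:**
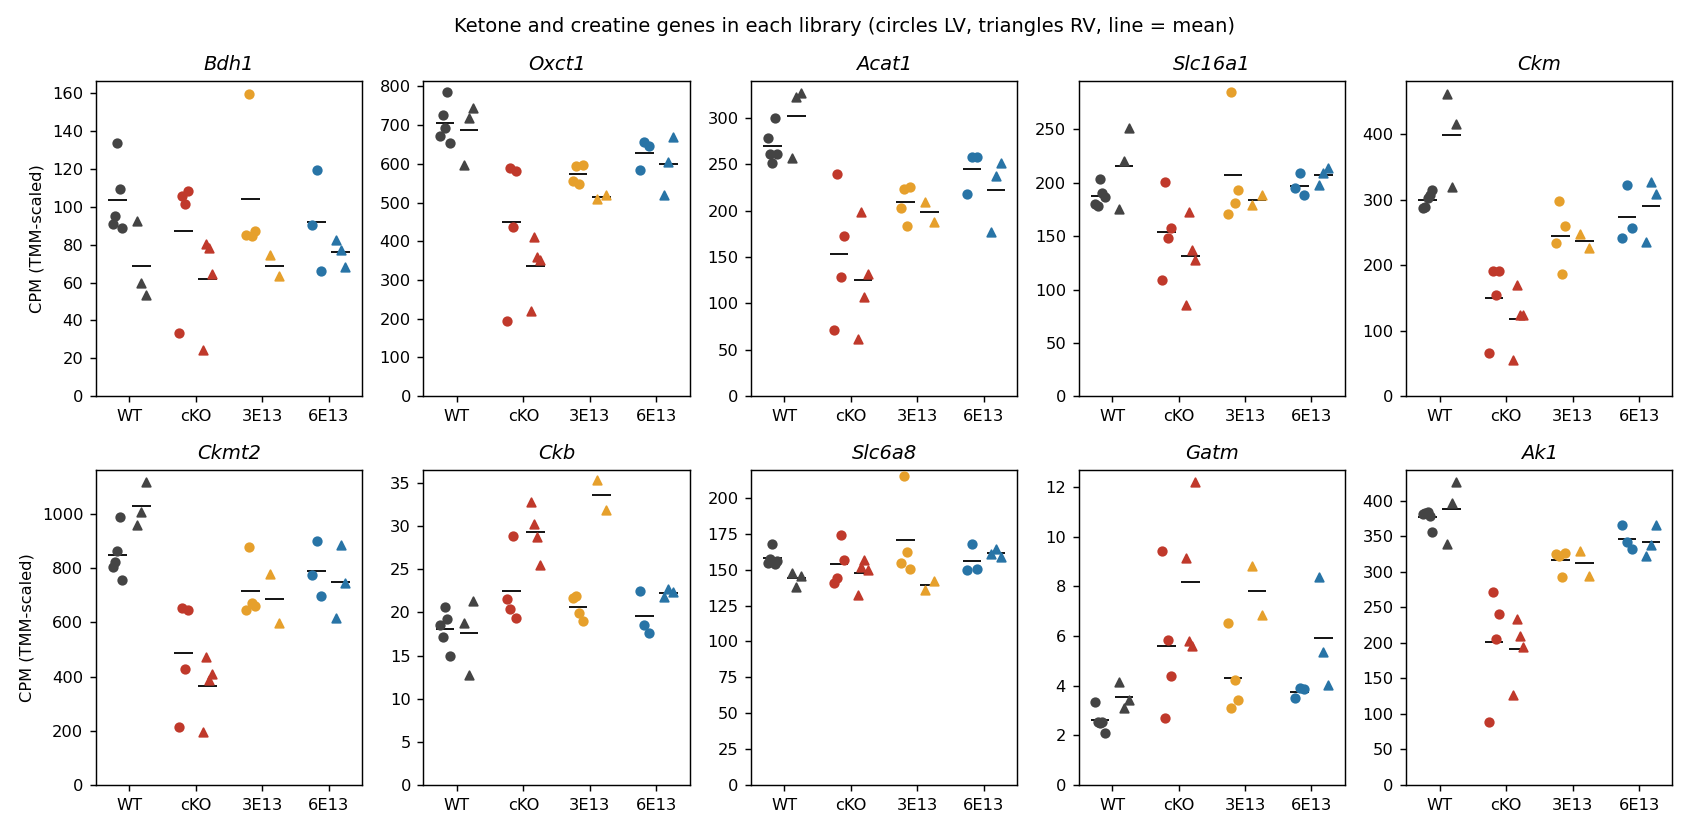
Levels of the 10 genes in CPM (TMM-scaled within a ventricle) in each library, by group, with circles for LV, triangles for RV and a line at the group mean. The cKO points of Oxct1, Acat1, Ckm, Ckmt2 and Ak1 lie below all WT points of the same ventricle, those of Ckb and Gatm in RV lie above them, and those of Slc6a8 lie both above and below WT points.

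Per unit of transcript length the genes of the set differed widely in abundance in WT LV. In TPM the value was highest for Ckmt2 at 531 ± 41.6 (SD, n = 5), followed by Oxct1 at 209 ± 9.79, Ckm at 195 ± 11.8 and Ak1 at 166 ± 10.3. Oxct1 and Ckm overlapped in range. Acat1 followed at 69.1 ± 4.31 TPM, then Slc16a1 at 46.1 ± 4.21, Slc6a8 at 43.3 ± 3.32 and Bdh1 at 40.6 ± 9.14, 3 genes whose ranges overlapped. Ckb stood at 10.7 ± 1.48 TPM and Gatm last at 1.62 ± 0.318 TPM. The same order held in WT RV for the means of Ckmt2 (529.9 ± 16.6 TPM, n = 3) and for Ckb (8.75 ± 2.21) and Gatm (1.79 ± 0.391) at the bottom, while Ckm at 229.9 ± 45.6 TPM stood above Oxct1 at 162 ± 14.1 there, with no overlap.

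Neither the gene of the first oxidation step nor that of the transporter passed the test in LV, and in RV the transporter did. Bdh1 (chr16:31241087-31277725, plus strand, GRCm39) stood at 88.9, 90.8, 95.0, 109 and 133 CPM in WT LV and at 33.3, 102, 106 and 108 CPM in cKO LV. Of the cKO animals, 3 lay within the WT range and replicate 177 lay at the bottom, and the fitted difference was -0.25 ± 0.30 (log2 fold change ± SE, adjusted p = 0.56). In RV the gene stood at 53.3, 60.0 and 92.6 CPM in WT and at 24.3, 64.5, 78.2 and 80.3 CPM in cKO, which overlapped (-0.15 ± 0.33, adjusted p = 0.757). Without replicate 177 the Bdh1 differences were 0.01 in LV and 0.11 in RV. Its sign depended on the scale, since on log2(TPM + 1) it differed by 0.13 in LV and 0.71 in RV (limma, adjusted p = 0.744 and 0.106). Slc16a1 (chr3:104545811-104565780, plus strand), the transporter, ranged over 178 to 204 CPM in WT LV and 109 to 201 CPM in cKO LV and did not pass there (-0.29 ± 0.16, adjusted p = 0.188). In RV it stood at 176, 220.1 and 251 CPM in WT and 85.9, 128, 137 and 173 CPM in cKO, with every cKO library below every WT library, and it fell by the test on counts (-0.72 ± 0.19, adjusted p = 0.0123), while on log2(TPM + 1) its difference was 0.13 in RV where the median of all genes shifted by 0.56, and 0.24 in LV where it shifted by 0.38 (limma, adjusted p = 0.441 and 0.185).

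Oxct1, the committed step, fell in both ventricles by the test on counts. Oxct1 (chr15:4055638-4184828, plus strand) stood at 654, 672, 691.6, 726 and 784 CPM in WT LV and at 194, 437, 581 and 589 CPM in cKO LV. No cKO library reached the lowest WT library, and the difference was -0.65 ± 0.23 (1.57-fold lower, adjusted p = 0.035). In RV the levels were 597, 719 and 744 CPM in WT and 219.7, 351, 360.4 and 412 CPM in cKO, again with no overlap (-1.03 ± 0.19, 2.05-fold lower, adjusted p = 0.00131). The LV call of Oxct1 was lost when WT replicate 248, 626, 636 or 637 or cKO replicate 257 was left out, with adjusted p between 0.0525 and 0.072, and it held without replicate 177 (-0.41, adjusted p = 0.00624). With only WT and cKO in the fit it was lost as well (-0.66, adjusted p = 0.0899). In TPM the groups overlapped in both ventricles, at 193 to 219.7 in WT LV and 102 to 226 in cKO LV. On log2(TPM + 1) Oxct1 did not pass (limma, -0.25 with adjusted p = 0.295 in LV, -0.20 with adjusted p = 0.254 in RV). Relative to the shift of all genes these differences stood at -0.63 and -0.76. Without mitochondrial genes in the TPM, Oxct1 passed in RV and not in LV (limma, -0.56 and -0.42, adjusted p = 0.0123 and 0.135).

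Acat1 (chr9:53450461-53521731, minus strand), the last step, fell as well. Its level was 252, 261, 261, 279 and 299.6 CPM in WT LV and 71.5, 129, 173 and 239 CPM in cKO LV. In RV it was 256, 322 and 327 CPM in WT and 62.1, 107, 132 and 199 CPM in cKO. All cKO libraries lay below all WT libraries in each ventricle, with a log2 fold change of -0.82 ± 0.23 in LV (adjusted p = 0.0123) and -1.27 ± 0.29 in RV (adjusted p = 0.00538). On log2(TPM + 1) Acat1 passed in RV and not in LV (limma, -0.58 and -0.39, adjusted p = 0.0245 and 0.071), at -1.14 and -0.77 relative to the shift of all genes. Without mitochondrial genes in the TPM, Acat1 passed in RV and LV (limma, -0.94 and -0.57, adjusted p = 0.00617 and 0.033). The highest cKO LV library at 76.6 TPM lay above the WT range of 63.1 to 74.7 TPM. Acat1 overlaps Npat on the other strand, which had a mean of 527.9 counts per library beside 5506.7 for Acat1, and since the strand setting of the quantification is not given in the sources used here, reads of the pair cannot be told apart.

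Among the creatine kinases the muscle and mitochondrial forms fell in both ventricles by the test on counts, and the brain form rose in RV. Ckm (chr7:19138701-19157965, plus strand) stood at 287, 288, 302, 306 and 315 CPM in WT LV and at 66.5, 154, 190.3 and 190.3 CPM in cKO LV. In RV it stood at 319, 415 and 460.5 CPM in WT and at 55.9, 123, 125 and 169.7 CPM in cKO. The groups were far apart in both ventricles, and Ckm had the largest fall of the 10 genes in each, 1.99-fold in LV (-1.0 ± 0.23, adjusted p = 0.00409) and 3.37-fold in RV (-1.75 ± 0.29, adjusted p = 0.000653). Without replicate 177 the values were -0.76 and -1.52, with adjusted p = 0.000581 and 0.000165.

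Ckmt2 (chr13:92001503-92025608, minus strand), the mitochondrial form, stood at 757, 805, 822, 864 and 988 CPM in WT LV and at 216, 428, 646 and 652 CPM in cKO LV. In RV its level was 961, 1007 and 1118 CPM in WT and 194, 388, 410.3 and 472 CPM in cKO. Every cKO library was below every WT library, with a fall of 1.75-fold in LV (-0.80 ± 0.24, adjusted p = 0.0176) and 2.81-fold in RV (-1.49 ± 0.25, adjusted p = 0.000801). On log2(TPM + 1) Ckmt2 passed in RV and not in LV (limma, -0.73 and -0.43, adjusted p = 0.00715 and 0.125), at -1.29 and -0.81 relative to the shift of all genes. In LV the TPM ranges overlapped, at 475 to 575 in WT and 236 to 524 in cKO, and on TPM without mitochondrial genes the LV call was lost too (-0.61, adjusted p = 0.0633).

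Ckb (chr12:111635789-111639008, minus strand), the brain form, was higher in RV. In WT LV it stood at 15.0, 17.1, 18.5, 19.2 and 20.6 CPM and in cKO LV at 19.3, 20.4, 21.5 and 28.8 CPM, which overlapped (0.31 ± 0.13, adjusted p = 0.067, and 0.79 with adjusted p = 0.00387 by limma on log2(TPM + 1)). In RV it stood at 12.7, 18.8 and 21.3 CPM in WT and at 25.5, 28.7, 30.3 and 32.8 CPM in cKO. There all cKO libraries were above all WT libraries, and Ckb rose 1.66-fold (0.73 ± 0.16, adjusted p = 0.00393). Ckb overlaps Trmt61a on the other strand, whose mean was 68.8 counts per library beside 599.6 for Ckb, with the same limit on strand as for Acat1.

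The promoters of these 3 creatine kinase genes are shown because the muscle and mitochondrial genes fell in RV where the brain gene rose. Each is the RefSeq window of 250 bases before to 50 bases after the transcription start (GRCm38.p6, printed 5′ to 3′ on the strand of the gene), at chr7:19410844-19411143, plus strand, for Ckm, chr13:91876836-91877135, minus strand, for Ckmt2 and chr12:111672289-111672588, minus strand, for Ckb. Capitals mark matches to an E-box of muscle regulators (CAGCTG), a MEF2 site (CTA, any 4 bases, TAG) or a TATA box (TATAAA), searched on both strands together with the site of estrogen-related receptors (TCAAGGTCA).
Ckm: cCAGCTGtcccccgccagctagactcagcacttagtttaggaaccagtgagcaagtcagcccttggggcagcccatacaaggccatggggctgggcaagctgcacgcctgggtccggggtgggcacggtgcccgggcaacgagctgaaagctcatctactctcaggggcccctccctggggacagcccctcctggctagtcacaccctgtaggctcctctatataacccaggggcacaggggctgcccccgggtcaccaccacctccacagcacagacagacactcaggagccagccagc
Ckmt2: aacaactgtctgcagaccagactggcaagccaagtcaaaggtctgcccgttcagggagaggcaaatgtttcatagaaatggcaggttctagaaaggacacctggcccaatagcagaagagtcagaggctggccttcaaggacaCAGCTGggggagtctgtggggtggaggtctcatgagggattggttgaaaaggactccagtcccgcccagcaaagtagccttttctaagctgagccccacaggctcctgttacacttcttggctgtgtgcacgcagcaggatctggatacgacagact
Ckb: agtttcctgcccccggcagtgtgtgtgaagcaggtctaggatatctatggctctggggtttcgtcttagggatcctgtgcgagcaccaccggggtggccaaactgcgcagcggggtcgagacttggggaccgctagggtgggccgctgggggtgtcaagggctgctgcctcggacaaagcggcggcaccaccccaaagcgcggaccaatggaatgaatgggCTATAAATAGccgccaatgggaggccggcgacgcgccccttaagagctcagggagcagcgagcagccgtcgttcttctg
The windows of Ckm and Ckmt2 each held an E-box, 249 and 107 bases before the start, a sequence found in 16.3% of the 32851 promoter windows of the table. The Ckb window held a MEF2 match 29 bases before the start (3.69% of all windows) that contains the TATA match 28 bases before it (13.6%). The receptor site, in 0.423% of all windows, was found in none of the 12 windows of the 8 genes with an entry (all but Acat1 and Slc6a8). These letters are a description of the windows.

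As a share of all creatine kinase transcripts (Ckm, Ckmt2, Ckb and Ckmt1, in TPM within a library, which does not depend on the scaling between libraries), Ckb took 1.28, 1.35, 1.41, 1.57 and 1.61% in WT LV and 2.14, 2.21, 4.47 and 6.72% in cKO LV. In RV the share was 0.88, 1.22 and 1.29% in WT and 4.12, 4.44, 5.19 and 11.4% in cKO. Every cKO heart had a larger share than every WT heart, with a mean of 3.88 ± 2.18% against 1.44 ± 0.14% in LV (SD, n = 4 and 5, two-sided exact permutation p = 0.00794) and 6.30 ± 3.46% against 1.13 ± 0.218% in RV (n = 4 and 3, exact p = 0.0286). Both p values are the smallest these designs allow, and after adjustment over the 20 ratio tests they were 0.159 and 0.19, which did not pass. Ckmt2 held 72.0% of creatine kinase transcripts in WT LV and 71.3% in cKO LV, and Ckm held 26.5% and 24.6%. The log2 ratio of Ckmt2 to Ckm differed by less than its spread, at 1.44 ± 0.135 in WT and 1.54 ± 0.134 in cKO LV (exact p = 0.365) and at 1.22 ± 0.264 and 1.42 ± 0.172 in RV (exact p = 0.286).

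**Figure D2:**
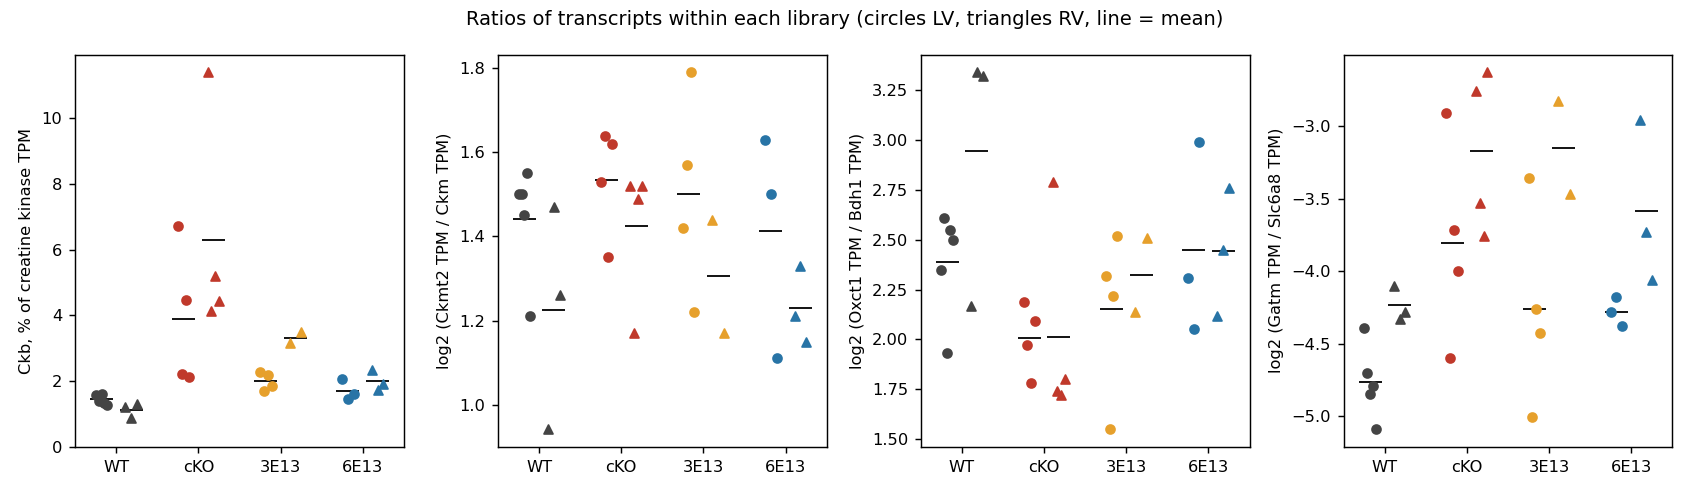
Ratios of transcripts within each library by group, with circles for LV, triangles for RV and a line at the mean. From left to right the axes are the percent of creatine kinase TPM from Ckb and the log2 ratios of TPM of Ckmt2 to Ckm, Oxct1 to Bdh1 and Gatm to Slc6a8. The Ckb share lies between 0.88 and 1.61% in WT libraries and between 2.14 and 11.4% in cKO libraries, and the Ckmt2 to Ckm ratios of WT and cKO overlap in each ventricle.

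Of the pair for creatine supply, Gatm rose and Slc6a8 did not pass the test on counts. Slc6a8 (chrX:72716728-72726108, plus strand), the importer, ranged over 154 to 168 CPM in WT LV and 141 to 174 CPM in cKO LV, and over 138 to 148 and 132 to 157 CPM in RV, with differences of -0.04 ± 0.10 and 0.04 ± 0.087 (adjusted p = 0.808 and 0.777). On log2(TPM + 1), where the median of all genes shifted by 0.38 in LV and 0.56 in RV, Slc6a8 was higher by 0.46 and 0.88 and passed (limma, adjusted p = 0.0152 and 0.000391), which left 0.08 and 0.32 relative to that shift. Gatm (chr2:122424948-122441799, minus strand), for the first step of synthesis, stood at 2.10, 2.51, 2.52, 2.54 and 3.36 CPM in WT LV and at 2.70, 4.38, 5.85 and 9.44 CPM in cKO LV. The lowest cKO library lay within the WT range and the other 3 lay above it, and Gatm rose 2.15-fold (1.11 ± 0.30, adjusted p = 0.0099). In RV it stood at 3.12, 3.42 and 4.13 CPM in WT and at 5.60, 5.82, 9.16 and 12.2 CPM in cKO, with no overlap (1.20 ± 0.32, 2.30-fold higher, adjusted p = 0.0123). Gatm stayed the least abundant of the 10 genes in cKO hearts, at 4.99 ± 3.20 TPM in LV (SD, n = 4). The log2 ratio of Gatm to Slc6a8 was -3.81 ± 0.703 in cKO and -4.76 ± 0.254 in WT LV (exact p = 0.0159, 0.159 adjusted over the ratio tests) and -3.17 ± 0.559 and -4.24 ± 0.118 in RV (exact p = 0.0571, adjusted 0.229).

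Ak1 (chr2:32511448-32528933, plus strand), the adenylate kinase of the cytosol, fell in both ventricles by the test on counts. It stood at 356, 379, 382, 383 and 384 CPM in WT LV and at 87.9, 206, 240.1 and 272 CPM in cKO LV. In RV it stood at 339.6, 397 and 427 CPM in WT and at 126, 194, 210.4 and 234 CPM in cKO. The groups did not overlap, and Ak1 fell 1.87-fold in LV (-0.90 ± 0.22, adjusted p = 0.00467) and 2.03-fold in RV (-1.02 ± 0.18, adjusted p = 0.000981). On log2(TPM + 1) Ak1 passed in neither (limma, -0.49 and -0.19, adjusted p = 0.0525 and 0.226), at -0.87 and -0.75 relative to the shift of all genes. Without mitochondrial genes in the TPM, Ak1 passed in LV and RV (limma, -0.67 and -0.55, adjusted p = 0.025 and 0.00689). In RV the TPM ranges overlapped, at 135 to 147 in WT and 100.5 to 156 in cKO.

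Markers of several cell types moved with these groups. Of all genes tested, 19.7% were higher and 16.1% lower in cKO LV, and 19.8% and 17.6% in cKO RV. Of the 10 markers of ventricular cardiomyocytes, 6 were lower in cKO LV and 8 in cKO RV and none higher, on the side of the genes that fell. Of 10 fibroblast markers, 8 were higher in LV and 10 in RV, and their sum in CPM was 1018 to 1315 for WT and 3553 to 6980.2 for cKO in LV, and 1268 to 1533 for WT and 6083 to 12746 for cKO in RV. All 9 macrophage and monocyte markers tested, of 10, were higher in each ventricle, with sums of 136 to 169.7 CPM in WT LV and 292 to 1361 in cKO LV. No fibroblast or macrophage marker was at 0 in any group. Of 8 endothelial markers, 1 was higher and 1 lower in LV and 1 was lower in RV, which is near or below the share of all genes. Higher in LV and RV were 1 and 5 of 8 markers of smooth muscle and pericytes, 1 and 3 of 6 of Schwann cells and nerves and 3 and 5 of 8 of lymphocytes. The LV counts of 1 of 8 and 1 of 6 are also near or below that share. The part of any of these cell types in the rise of Ckb and Gatm and in the fall of the other genes was not tested. Of 6 atrial markers, 5 were higher in cKO RV, with sums of 73.3 to 811 CPM there against 11.1 to 18.5 CPM in WT RV, and Sln was at 0 in WT RV. Without the 2 cKO RV libraries with the most Myl7, an atrial marker, an alternative chosen after seeing the data, the same 8 genes passed, and Ckm differed by -2.16 and Ckb by 0.72.

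In treated LV, Ckm and Ak1 passed as higher than in cKO at the higher dose by the test on counts. These 2 of the 10 genes are a share near that of all genes called there. The comparisons of both doses use the same cKO libraries, which also serve in the comparison of cKO with WT. At 3E13, 0 of the 10 genes passed against cKO in LV by edgeR (11.8% of all genes did), 4 had an unadjusted p below 0.05, and DESeq2 called 2. At 6E13, 2 passed, both higher (16.8% of all genes). The median log2 fold change of the 10 genes was 0.39 at 3E13 and 0.42 at 6E13, and that of all genes tested -0.03 and -0.04. Ckm stood at 187, 233, 259 and 298 CPM in 3E13 LV and 242, 256 and 322 CPM in 6E13 LV. All 6E13 libraries were above the highest cKO library (0.86 ± 0.26, adjusted p = 0.0345), and the lowest 3E13 library was below it (0.70 ± 0.24, adjusted p = 0.0726). Ak1 stood at 292, 322, 325 and 327 CPM and 333, 342 and 366 CPM, all above cKO (0.65 ± 0.23, adjusted p = 0.0716, and 0.78 ± 0.24, adjusted p = 0.0378). Both LV calls at 6E13 were lost when any 6E13 animal or cKO replicate 257 was left out, with adjusted p from 0.051 to 0.128, and held without replicate 177. The Ak1 call was also lost without WT replicate 248 (adjusted p = 0.0501), and without cKO replicate 264 Ckmt2 passed (0.88, adjusted p = 0.0496). DESeq2 called 3 genes at 6E13, with Ckmt2 as the third (0.69, adjusted p = 0.0487), and limma on log2(TPM + 1) called 0, with Ckm at 0.55 (adjusted p = 0.0748) and Ak1 at 0.48 (adjusted p = 0.127). Without replicate 177, Ckm and Ak1 also passed at 3E13 (0.46 and 0.41, adjusted p = 0.0448 and 0.00915), and without cKO replicate 180, 4 genes passed at 3E13 and 5 at 6E13. Cell markers moved with the treated groups. Against cKO LV, 3 of the 10 cardiomyocyte markers were higher at 3E13 and 4 at 6E13, with sums of 92771 to 109198 and 89872 to 106940.5 CPM, all above the cKO range. Lower were 4 and 5 of the 10 fibroblast markers, whose sums were 1934 to 2411 and 1484 to 2252 CPM, and 5 and 6 of the 9 macrophage and monocyte markers tested, and the part of these cells in the treated levels was not tested.

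The remaining LV values at 3E13 and 6E13 did not pass against cKO. Oxct1 stood at 547 to 596 CPM and 583 to 656 CPM, with differences of 0.35 ± 0.23 and 0.48 ± 0.25. Acat1 stood at 184 to 225 and 218 to 258 CPM (0.45 ± 0.24 and 0.68 ± 0.26), and Ckmt2 at 644 to 878 and 699 to 900.3 CPM (0.56 ± 0.25 and 0.71 ± 0.27). The adjusted p of these 3 genes lay between 0.158 and 0.352 at 3E13 and between 0.0845 and 0.205 at 6E13, and only Ckmt2 at 6E13 lay above all cKO libraries. Slc16a1 differed by 0.43 ± 0.17 and 0.36 ± 0.18, Bdh1 by 0.25 ± 0.32 and 0.08 ± 0.34, and Slc6a8 by 0.15 ± 0.11 and 0.02 ± 0.12. Ckb stood at 19 to 21.9 and 17.6 to 22.5 CPM (-0.12 ± 0.14 and -0.20 ± 0.15), and Gatm at 3.10 to 6.52 and 3.50 to 3.89 CPM (-0.37 ± 0.32 and -0.58 ± 0.35).

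Compared with WT LV, edgeR called 0 of the 10 genes at 3E13 (2.5% of all genes, 1 of the 10 with an unadjusted p below 0.05) and 0 at 6E13 (0.0853% of all genes, 0 unadjusted), and DESeq2 called 0 in both. The fold changes of the 10 genes against WT ran from -0.37 ± 0.23 (Acat1) to 0.73 ± 0.30 (Gatm) at 3E13 and from -0.17 ± 0.24 (Oxct1, with Bdh1 at the same value) to 0.53 ± 0.33 (Gatm) at 6E13. All 3E13 libraries lay below all WT libraries for Oxct1, Acat1 and Ak1. With only the WT and 3E13 groups in the fit these 3 genes passed (-0.30, -0.38 and -0.26, adjusted p = 0.0208, 0.0137 and 0.0205), and without cKO replicate 177, which is outside this pair of groups but shares its estimate of spread, Ak1 passed (-0.26, adjusted p = 0.0467). Between the doses, edgeR and DESeq2 called 0 of the 10 genes in LV (0.0122% of all genes, 0 unadjusted by edgeR).

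In treated RV, genes for ketone use, creatine kinase and adenylate kinase were higher than in cKO at the higher dose by the test on counts. The median of the 10 genes was 0.55 at 3E13 and 0.74 at 6E13, beside -0.02 and -0.04 over all genes tested. At 6E13, 5 of the 10 passed, 5 higher (22.1% of all genes), namely Oxct1, Slc16a1, Ckm, Ckmt2 and Ak1. Ckm stood at 235, 309 and 327 CPM (1.29 ± 0.28, 2.45-fold higher, adjusted p = 0.00813) and Ckmt2 at 616, 746 and 885 CPM (1.03 ± 0.25, adjusted p = 0.013). Oxct1 stood at 520.5, 606 and 670.2 CPM (0.83 ± 0.19, adjusted p = 0.00936), Ak1 at 323, 337 and 366 CPM (0.84 ± 0.18, adjusted p = 0.0068) and Slc16a1 at 198, 209 and 214 CPM (0.66 ± 0.19, adjusted p = 0.0305). The 6E13 libraries were above all 4 cKO libraries for each of these 5 genes, and also for Slc6a8, which did not pass. How many of all genes separate in this way was not counted in any comparison. The levels of Oxct1, Slc16a1, Ckm and Ak1 overlapped those of WT, while Ckmt2 and Acat1 lay below all WT libraries and Slc6a8 above them. Acat1 stood at 177, 238 and 252 CPM, overlapped cKO and did not pass (0.83 ± 0.29, adjusted p = 0.0648). Bdh1 at 68.4, 77.3 and 82.4 CPM and Slc6a8 at 159, 161 and 164 CPM differed by 0.30 ± 0.33 and 0.13 ± 0.087 and did not pass. Without 6E13 replicate 631, 3 genes passed in place of 5, and Ckmt2 (0.90, adjusted p = 0.0596) and Slc16a1 (0.65, adjusted p = 0.0836) did not. The call of Slc16a1 was also lost without 6E13 replicate 250 or 645 or cKO replicate 264 (adjusted p from 0.0581 to 0.0966). Acat1 passed without cKO replicate 180 (1.14, adjusted p = 0.00702). On log2(TPM + 1), where the median of all genes was 0.39 lower at 6E13 than in cKO, Ckm (0.75) and Ckmt2 (0.56) passed as higher (limma, adjusted p = 0.0207 and 0.0383). Oxct1 (0.33), Slc16a1 (0.12) and Ak1 (0.32) did not pass there (adjusted p = 0.0896, 0.532 and 0.0769), and Ckb and Slc6a8 were called lower (-0.94 and -0.49, adjusted p = 0.00449 and 0.0208). Cardiomyocyte markers were on the side of the genes that were higher, with 6 of 10 higher at 6E13 and a sum of 92381 to 109148 CPM, above all cKO RV libraries. Lower at 6E13 were 8 of 10 fibroblast, 7 of 9 macrophage and 4 of 6 atrial markers, and the part of these cells in the result was not tested.

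At 3E13 there were 2 RV libraries. By the test on counts Ak1 alone passed against cKO, higher (8.6% of all genes), at 294 and 329.8 CPM (0.71 ± 0.20, adjusted p = 0.0493), and 5 of the 10 genes had an unadjusted p below 0.05. On log2(TPM + 1) Ak1 did not pass (limma, 0.05, adjusted p = 0.813), and Slc6a8 was called lower in its place (-0.71, adjusted p = 0.00874). Ckm stood at 226 and 247 CPM and Ckmt2 at 597 and 778 CPM, above all cKO libraries (1.00 ± 0.32 and 0.91 ± 0.28, adjusted p = 0.0709 and 0.0646). Oxct1 at 509.8 and 521 CPM and Slc16a1 at 179 and 189 CPM also lay above all cKO libraries and did not pass (0.62 ± 0.21 and 0.49 ± 0.22). Acat1 at 188 and 209 CPM differed by 0.67 ± 0.33, and Bdh1 at 63.5 and 74.4 CPM and Slc6a8 at 136 and 142 CPM by 0.16 ± 0.37 and -0.09 ± 0.099. The count of 1 ranged from 0 to 5 genes over the alternatives, and Ak1 lost its call when either 3E13 animal (adjusted p = 0.315 and 0.17) or any of 7 other animals was left out. At this dose 3 of 10 cardiomyocyte markers were higher than in cKO RV, with sums of 78830.0 to 80176 CPM, 2 of 10 fibroblast, 2 of 9 macrophage and 3 of 6 atrial markers were lower, and their part was not tested either.

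Ckb in treated RV hearts lay above WT at 3E13. At 3E13 it stood at 31.9 and 35.4 CPM, above all WT libraries and within or above the cKO range, and it was the only gene of the 10 that passed against WT there (0.93 ± 0.19, 1.91-fold higher, adjusted p = 0.0118, with 7.38% of all genes called). Leaving out replicate 181 or 253, the only 3E13 animals with RV libraries, gave adjusted p = 0.107 and 0.0596, and without cKO replicate 177 Ckm also passed, lower than in WT (-0.75, adjusted p = 0.0417). At 6E13 it stood at 21.8, 22.4 and 22.7 CPM, below all cKO libraries and above all WT libraries, with neither difference past the test (-0.39 ± 0.16, adjusted p = 0.1, and 0.34 ± 0.17, adjusted p = 0.464). Without WT replicate 637 the difference from cKO passed (-0.39, adjusted p = 0.034). Its share of creatine kinase transcripts was 3.15 and 3.48% at 3E13 and 1.73, 1.91 and 2.34% at 6E13. Gatm stood at 6.85 and 8.81 CPM at 3E13 and 4.02, 5.34 and 8.39 CPM at 6E13, which differed from cKO by -0.07 ± 0.35 and -0.47 ± 0.31 and did not pass. Fibroblast markers summed to 3837 to 4397 CPM in 3E13 RV and 1963 to 4014 CPM in 6E13 RV, above WT and below cKO, and their part in these levels was not tested. Against WT, edgeR called 0 of the 10 genes in 6E13 RV (0.872% of all genes, 0 unadjusted), and between the doses 0 (0.0404% of all genes, 1 unadjusted), and DESeq2 called 0 in both. The fold changes of the 10 genes against WT in RV ran from -0.75 ± 0.35 (Ckm) to 1.14 ± 0.37 (Gatm) at 3E13 and from -0.46 ± 0.27 (Ckmt2) to 0.74 ± 0.34 (Gatm) at 6E13. The 3E13 RV libraries lay below all WT libraries for Oxct1, Acat1, Ckm, Ckmt2 and Ak1, and above them for Ckb and Gatm. With only the WT and 3E13 groups in the edgeR fit, Acat1, Ckm and Gatm also passed (-0.60, -0.75 and 1.14, adjusted p = 0.0404, 0.0383 and 0.0248).

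**Figure D3:**
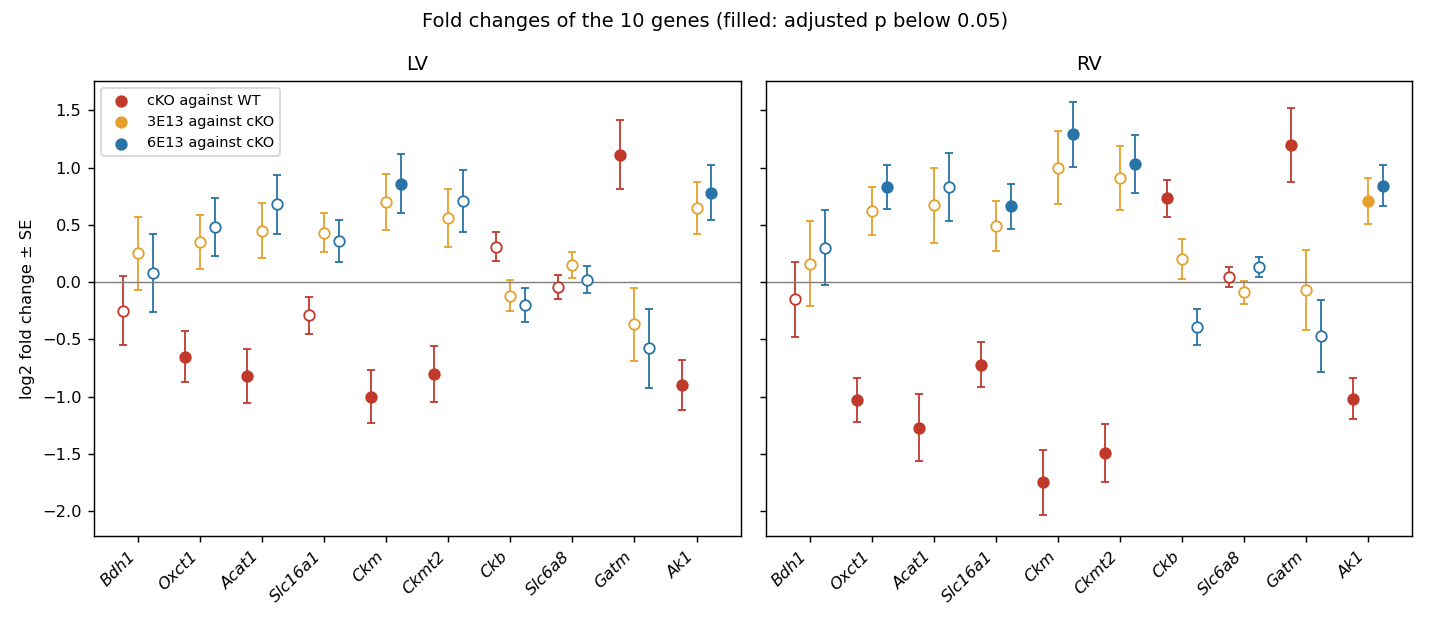
Log2 fold changes with SE of the 10 genes in LV and RV for cKO against WT, 3E13 against cKO and 6E13 against cKO. Filled points passed at an adjusted p below 0.05 and open points did not. The largest fall is that of Ckm in RV at -1.75, and the largest rise from cKO to 6E13 is that of Ckm in RV at 1.29.

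Both ventricles of 1 animal could be compared in 12 animals, with the animal as a block in the model. In cKO hearts 5 of the 10 genes passed, all lower in RV (4.08% of all genes), with Bdh1 at -0.63 ± 0.11 (adjusted p = 0.0114), Ckmt2 at -0.49 ± 0.12 (0.0424), Ckm at -0.47 ± 0.10 (0.0264), Acat1 at -0.42 ± 0.075 (0.0137) and Slc16a1 at -0.38 ± 0.09 (0.0398). Of the other 5, Oxct1 stood at -0.48 ± 0.12, Ckb at 0.26 ± 0.15, Gatm at 0.47 ± 0.28, Slc6a8 at -0.20 ± 0.058 and Ak1 at -0.13 ± 0.12. Each of the 5 genes that passed had a lower CPM in RV than in LV in 4 of 4 cKO animals, with both ventricles scaled together. The fit used these same animals, so this is no separate support. Slc6a8, which did not pass, was also lower in 4 of 4. In the same contrast all 6 atrial markers and 6 of 10 fibroblast markers were higher in RV and 2 of 10 cardiomyocyte markers were lower, and their part in the result was not tested. The count depended on which animals were in the fit. It fell to 0 without cKO replicate 264, to 1 without 180 and to 2 without 257, was 5 without 177, where Oxct1 passed and Slc16a1 did not. It was 3 without 3E13 replicate 181 or 253, 6E13 replicate 250, 631 or 645 or WT replicate 637. With voom and the animal as a random block it was 0, and with no replicate block it was 0, with the Bdh1 difference at -0.63 in both. In WT, edgeR called 0 of the 10 genes (0.00556% of all genes, 2 unadjusted) and in 6E13 0 (0.0111%, 2 unadjusted), and voom called 0 in both. Bdh1 was lower in RV in 3 of 3 WT animals as well (-0.83 ± 0.12, adjusted p = 0.0834).

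The test of whether the cKO effect itself differed between RV and LV called 0 of the 10 genes (0.0111% of all genes) by edgeR and by voom, with 4 genes at an unadjusted p below 0.05. The values were -0.71 ± 0.15 for Ckm (adjusted p = 0.176), -0.61 ± 0.18 for Ckmt2 (0.285), -0.45 ± 0.11 for Acat1 (0.211) and -0.40 ± 0.14 for Slc16a1 (0.341), all toward a larger fall in RV. Ckb stood at 0.45 ± 0.23, Gatm at 0.01 ± 0.44 and Ak1 at -0.06 ± 0.18. A larger cKO effect in RV was therefore not shown for any gene of the set, with 3 WT and 4 cKO animals in that contrast.

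**Figure D4:**
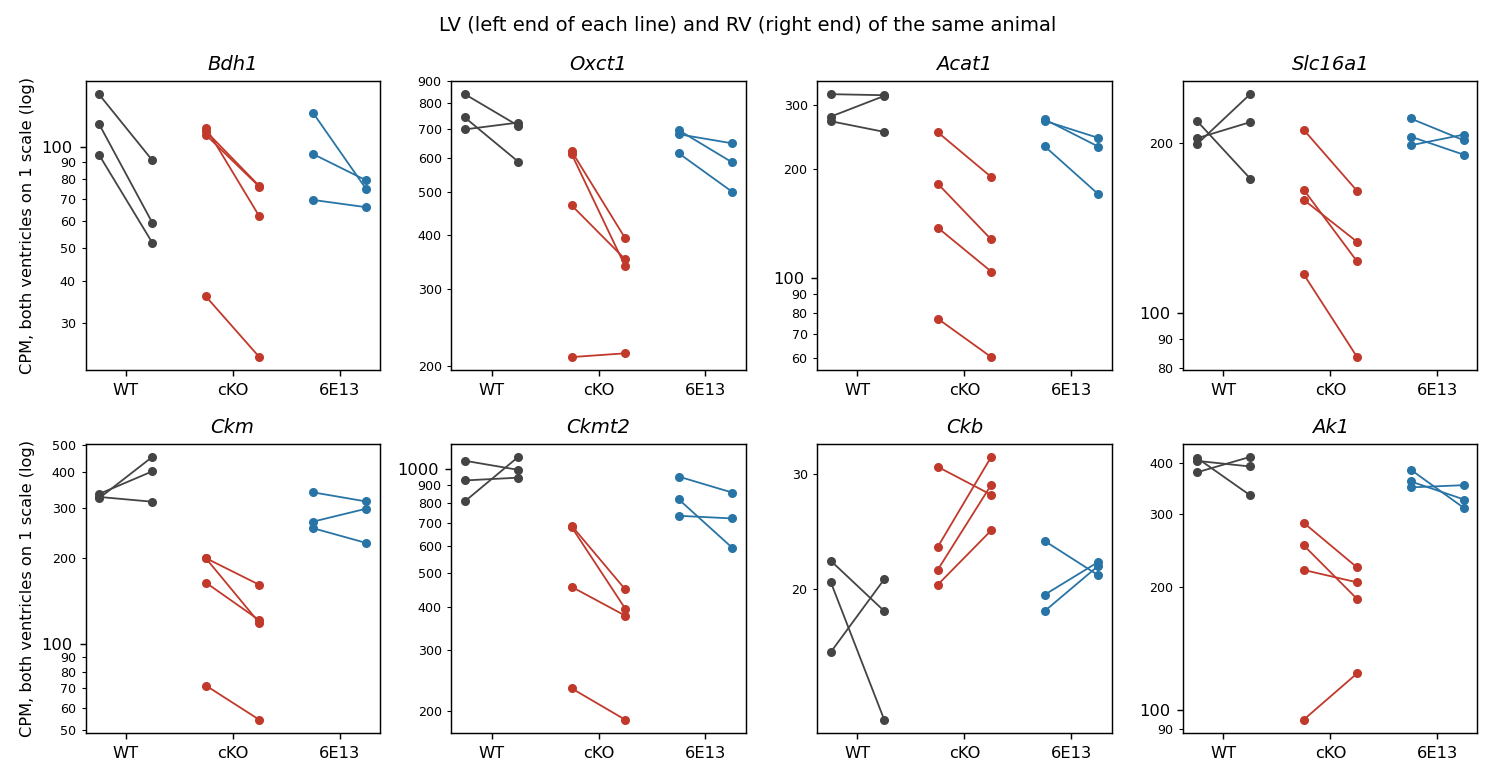
CPM (log scale, both ventricles scaled together) of 8 of the genes in LV (left end of a line) and RV (right end) of the same animal in WT, cKO and 6E13. The lines of all 4 cKO animals go down from LV to RV for Bdh1, Acat1, Slc16a1, Ckm and Ckmt2, while the WT lines of these genes other than Bdh1 go up in some animals and down in others.

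A further 40 genes around the same reactions were listed with the set, and their changes were mixed. In cKO LV, 31 of the 40 were tested, of which 5 were higher and 12 lower. In RV 34 were tested, of which 6 were higher and 14 lower. Of all genes tested, 19.7% were higher and 16.1% lower in LV, and 19.8% and 17.6% in RV. Together these are 35.8% and 37.4% of all genes, and they apply to each list below. The carriers and pores that pass ATP, ADP and phosphate through the mitochondrial membranes were lower, with 5 of 6 tested lower in LV (median -0.71) and 5 of 7 lower in RV (median -1.06), and none higher. Slc25a4, the heart form of the ADP/ATP carrier, went from 1462 ± 93.5 CPM in WT LV to 877 ± 409.9 CPM in cKO LV (-0.74 ± 0.26, adjusted p = 0.0372) and differed by -1.22 ± 0.29 in RV. Slc25a3, the phosphate carrier, differed by -0.77 ± 0.16 and -1.14 ± 0.19, Vdac1 by -0.68 ± 0.17 and -1.06 ± 0.19 and Vdac3 by -0.73 ± 0.13 and -1.05 ± 0.17 in LV and RV, and Vdac2 by -0.27 ± 0.099 and -0.77 ± 0.13, each past the test. Without replicate 177 Slc25a4 differed by -0.49 in LV (adjusted p = 0.0303) and Vdac2 no longer passed there (-0.26, adjusted p = 0.0548). These 5 genes lay on the same side as the cardiomyocyte markers above.

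Among the 12 other genes of ketone metabolism, 2 were higher and 2 lower of 9 tested in LV. In RV 3 were higher and 2 lower of 10 tested. Over all genes, 35.8% were called in LV and 37.4% in RV, so these counts stand not far from the share of all genes. Bsg (basigin), the partner that brings monocarboxylate transporters to the cell surface, fell from 564 ± 46.8 to 334 ± 112 CPM in LV (-0.76 ± 0.19, adjusted p = 0.00571) and by 0.98 on the log2 scale in RV. Slc16a3 (MCT4), a transporter best known for lactate export, rose in the other direction, from 2.28 ± 0.101 to 10.4 ± 9.32 CPM in LV (2.19 ± 0.40, adjusted p = 0.00076) and from 2.26 ± 0.45 to 8.11 ± 1.86 CPM in RV (1.85 ± 0.29, adjusted p = 0.000472). In cKO LV its level was 3.84, 6.24 and 7.46 CPM in 3 animals and 24.3 CPM in replicate 177, without which the difference from WT was 1.35 (adjusted p = 0.000527). It was lower again at 3E13 (-1.86 ± 0.43) and 6E13 (-1.95 ± 0.48) in LV and at 6E13 in RV (-1.03 ± 0.27). Without replicate 177 the LV differences from cKO were -1.02 and -1.11 (adjusted p = 0.0171 and 0.0115). Aacs, a cytosolic enzyme that sends acetoacetate to lipid synthesis, was higher by 1.29 ± 0.25 in RV (adjusted p = 0.00182). Bdh2 was higher by 2.89 ± 0.59 in LV (adjusted p = 0.00155), from 1 to 6 counts per library in WT and 10 to 50 counts in cKO, so that its fold change rests on few reads.

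Among the 11 other genes of creatine and adenylate kinases, 1 was higher and 2 were lower of 8 tested in LV. In RV 1 was higher and 4 lower of 8 tested. The LV count stood at about the 35.8% of all genes called there, and 37.4% of all genes were called in RV. Ak4, an adenylate kinase of the mitochondrial matrix, was lower in both ventricles (-0.72 ± 0.16, adjusted p = 0.00235, and -0.94 ± 0.22, adjusted p = 0.00585). In RV, Ak3 (-0.39 ± 0.12) and Ak6 (-0.49 ± 0.14) were lower and Ak5 was higher (1.48 ± 0.46, from 0.577 ± 0.159 to 1.62 ± 0.529 CPM). Ak5 did not pass without replicate 177 (1.37, adjusted p = 0.0568). Gamt, the second step of creatine synthesis, was lower in LV (-1.11 ± 0.36, adjusted p = 0.0243, from 2.53 ± 0.68 to 1.17 ± 0.494 CPM), where Gatm was higher, and differed by 0.20 ± 0.36 in RV. Ckmt1, the ubiquitous mitochondrial creatine kinase, was called in LV (adjusted p = 0.0327) on 0, 0, 0, 1 and 4 counts in WT and 8, 9, 13 and 28 counts in cKO, a level far below that of Ckmt2, and without replicate 177 it did not pass the filter on low counts.

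The AMP-activated kinase (AMPK), which senses the AMP that adenylate kinase makes, and the AMP deaminases gave 2 higher and 3 lower genes of 8 tested in LV and 2 higher and 3 lower of 9 tested in RV. Its catalytic subunit Prkaa2 fell from 271 ± 8.50 to 163 ± 31.1 CPM in LV (-0.73 ± 0.12, adjusted p = 0.00035) and from 283 ± 15.9 to 138 ± 23.9 CPM in RV (-1.04 ± 0.13, adjusted p = 0.00012), and was higher than in cKO at 6E13 in LV (0.55 ± 0.14) and RV (0.86 ± 0.13). The regulatory subunits Prkab1 (-0.64 ± 0.12 and -1.02 ± 0.13) and Prkag1 (-0.54 ± 0.14 and -0.79 ± 0.14) were lower and Prkag2 higher (0.41 ± 0.14 and 0.91 ± 0.15) in LV and RV, each past the test.

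**Figure D5:**
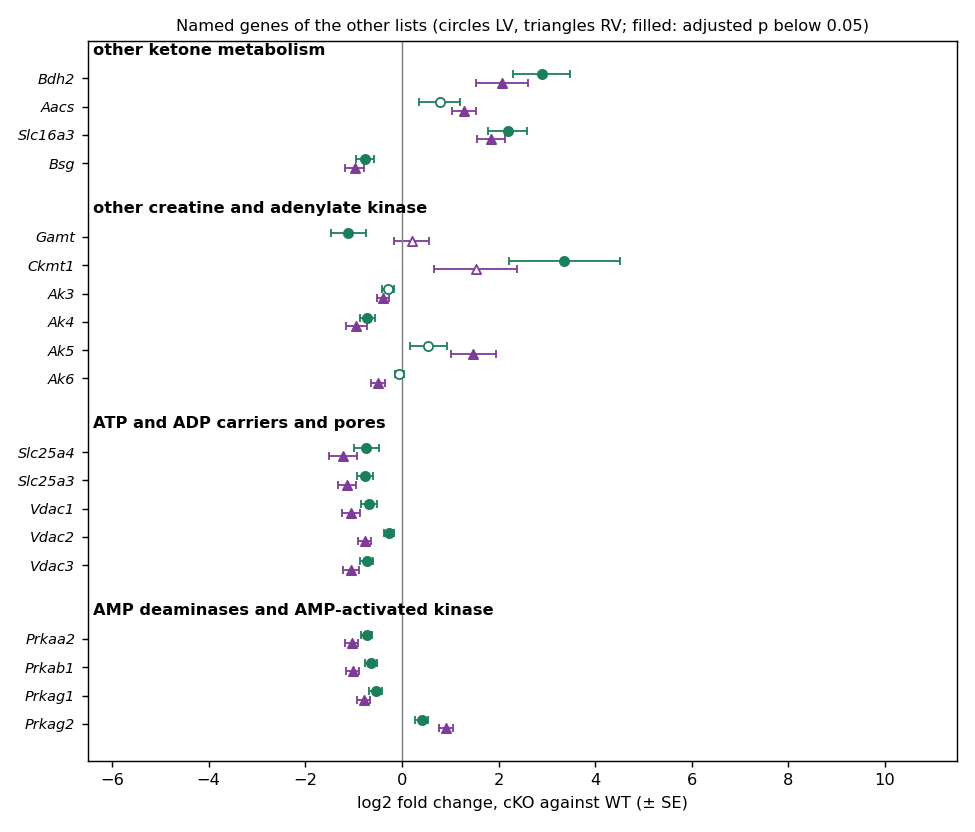
Log2 fold changes with SE for cKO against WT of the named genes of the 4 further lists, with circles for LV and triangles for RV, filled where the adjusted p was below 0.05. The carriers and pores that passed lie between -1.22 and -0.27, while ketone metabolism holds Bdh2 and Slc16a3 above 1.8 and Bsg below 0.

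The genes most like Bdh1 and Ckm were taken across the 16 LV libraries, from 9634 genes whose mean reached 5 CPM. The genes most like Ckm by the Pearson correlation of log2 CPM were Pdhb, a subunit of pyruvate dehydrogenase (0.986), Osbp (0.983), Stau2 (0.981), Apoo, a protein of mitochondrial cristae (0.981), and D10Jhu81e (0.976). Those most like Bdh1 were Rasl10b (0.946), Ppip5k1 (0.928), Rnf13 (0.92), Nek9 (0.918) and Kremen1 (0.918). The 2 lists share no gene, but lists this short cannot show that Bdh1 and Ckm differ. The correlation of Bdh1 with Ckm itself is not given here. These values describe libraries that share the spread between the 4 groups and the low values of replicate 177. The log2 ratio of Oxct1 to Bdh1 was 1.93, 2.35, 2.50, 2.55 and 2.61 in WT LV and 1.78, 1.97, 2.09 and 2.19 in cKO LV, where the groups overlapped (exact p = 0.0556, adjusted 0.229). In RV it was 2.17, 3.32 and 3.34 in WT and 1.72, 1.74, 1.8 and 2.79 in cKO, with replicate 177 at the top of the cKO group (exact p = 0.114, adjusted 0.286). Of the 20 ratio tests, 0 passed after adjustment, and 3 had an unadjusted exact p below 0.05.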

How the data were processed

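RNA of LV and RV tissue was sequenced from stranded libraries, for which the labels name both a poly(A) protocol and a total RNA kit with depletion of ribosomal RNA, and quantified with Salmon 1.8.0 against GENCODE transcripts of GRCm39. The authors deposited estimated counts per gene, TPM values and average transcript lengths per library, and the strand setting is not given in the sources used here. The deposited genes held 77.93 to 91.4% of the TPM of a library. In LV this share was 84.55 to 86.56% in cKO and 89.39 to 91.4% in WT. In RV it was 77.93 to 85.98% in cKO and 85.4 to 90.12% in WT. Its part in the results on TPM was not tested. Counts were rounded, and a row without a symbol (at most 0.000971% of a library) was left out. R 4.3.3 and edgeR 4.0.16 fitted all libraries of a ventricle (TMM scaling, filterByExpr, quasi-likelihood F test, Benjamini-Hochberg adjustment over 16410 genes in LV and 17307 in RV), and RV was compared with LV over 17981 genes with the animal as a block and TMM scaling over both ventricles, since the labels tie both ventricles to 1 animal number. Fold changes are log2 with SE. Groups share only animal numbers within a condition, so no pairing between conditions was made. Ratios of TPM were tested with exact permutation over samples. The members and lists were chosen with earlier results of these data known. The text names the 10 members and, in each further list, the 4 with the smallest adjusted p for cKO against WT in each ventricle, of which 1 gene is not reported here. Alternatives were RLE factors, no low-count filter, length offsets, DESeq2 1.42.0, limma 3.58.1 on log2(TPM + 1) and log2(TPM + 0.1), removal of mitochondrial genes, sex as a covariate, 2-group fits, the replicate block and leaving out each animal. The fits were tested on simulated data. Libraries held 19364764 to 39381176 estimated reads, which limits precision through counting error only. None of 38 pairs of libraries within a group was a copy (lowest chi-squared per degree of freedom 17.9). Promoters came from RefSeq (GRCm38.p6), and gene positions are those of GRCm39.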

Additional observations from a re-analysis of the deposited data

Results flagged for a closer look

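In groups of 4 or 5 libraries, a value was set apart where its gap to the next one took more of the range than Dixon's 95% limit allows. This held for 10 of 56 groups tested. These tests reuse the same animals and genes, so the count cannot be set against a rate of chance.

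In cKO animals, replicate 177 had 33.3 CPM of Bdh1 in LV (next 101.6), a Ckb share of creatine kinase transcripts of 11.4% in RV (next 5.19) and an Oxct1 to Bdh1 log2 ratio of 2.79 in RV (next 1.8). Replicate 180 had a Ckmt2 to Ckm log2 ratio of 1.17 in RV (next 1.49). In 3E13 LV, replicate 182 had 159.6 CPM of Bdh1 (next 87.3) and 878.1 CPM of Ckmt2 (next 673.2), and replicate 252 had 292.5 CPM of Ak1 (next 322.4). In WT LV, replicate 636 had 167.9 CPM of Slc6a8 (next 157.2), and replicate 647 had 356.3 CPM of Ak1 (next 378.8) and a Ckmt2 to Ckm log2 ratio of 1.21 (next 1.45).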

How the results depend on the processing

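Of the counts of called genes in the 16 comparisons, 128 of 150 values under other settings stayed within 1.5 times the reported count, as did 183 of 216 with an animal left out. A count of 0 in both fits was scored as unchanged. The reported count was 0 in most of the 16 comparisons, so these totals say little about the comparisons with calls. For 3E13 against cKO in LV, DESeq2 called 2. For 6E13 against cKO in LV, 0 were called by limma on log2(TPM + 1), on log2(TPM + 0.1) and without mitochondrial genes, and 0 with only both groups in the fit. For 3E13 against WT in LV, the 2-group fit called 3. For 3E13 against cKO in RV, 0 were called with RLE factors, length offsets, limma without mitochondrial genes, sex as a covariate or only both groups, 2 without a low-count filter, 4 by DESeq2 and 5 without the 2 cKO libraries with most Myl7, an alternative chosen after seeing the data. In that comparison the count under limma on log2(TPM + 1) and log2(TPM + 0.1) hid a change, as Slc6a8 was called lower in place of Ak1. For 3E13 against WT in RV, DESeq2 called 2, limma without mitochondrial genes 0, the 2-group fit 4 and the fit without the Myl7-rich libraries 2. RV against LV gave 1 in WT with no filter, and in cKO 3 with length offsets, 0 with no replicate block and 0 with voom and the animal as a replicate block. No block could be set between conditions. The cause of these changes was not tested.

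With an animal left out, the count ran from 5 to 7 for cKO against WT in LV and from 7 to 8 in RV, from 0 to 4 (LV) and 0 to 4 (RV) for 3E13 against cKO, from 0 to 5 (LV) and 3 to 6 (RV) for 6E13 against cKO, from 0 to 1 (LV) and 0 to 2 (RV) for 3E13 against WT, and from 0 to 5 for RV against LV in cKO. The other 7 comparisons with 0 called stayed at 0. Among genes called on counts a direction reversed for Slc16a1, cKO against WT in RV, at 0.13 on log2(TPM + 1) and 0.13 on log2(TPM + 0.1), against -0.72 on counts. Values that did not pass also changed sign on log2(TPM + 1), such as Bdh1 in LV and RV. In the 192 alternatives of the ratios no call changed. Where the smallest possible p was too large for a call, the difference moved by less than 1 SD. As no ratio test passed in the main setting, an unchanged call says little. Estimates for 3E13 in RV rest on 2 animals, and few reads limit Ckmt1, Bdh2 and Gatm.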
